A study of Mus musculus with 4 samples.

Results

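Interferon-stimulated genes are the genes that cells switch on after an interferon binds its receptor. A list of 46 of them was followed through the cells of mouse bronchoalveolar lavage, the fluid washed from the airspaces of the lung. Genes entered by symbol, with no threshold on measured values, and all 46 were present among the 13838 genes of the deposited matrix. It holds 22 antiviral effectors, 8 regulators of the response, 5 sensors of foreign or misplaced nucleic acid, 5 interferon-inducible GTPases, 4 small membrane proteins and 2 chemokines. The question was which of the 17 cell types named by the authors carried these transcripts, in which of 4 libraries.

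All mice were C57BL/6, and their age was not given in the labels. For 12 days they spent 6 h a day in whole-body chambers that held filtered air or airborne dust collected in Afghanistan (Afghanistan particulate matter, APM, at 5 mg/m3). Beginning 9 days after the last exposure they received house dust mite (HDM, a common inhaled allergen, 10 µg through the nose) or phosphate-buffered saline, on days 22 and 29 and again on days 36, 37 and 38. Lavage was collected on day 39. The groups were control (filtered air and saline), HDM (filtered air and allergen), APM (dust and saline) and HDM+APM (dust and allergen). Each group was sequenced as 1 library from the combined lavage of 7 mice, so there were no replicates and no test between groups was possible. The intervals below are 95% intervals for counting error alone and hold no animal-to-animal spread. Differences between groups cannot be told apart from differences between the libraries.

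Interferons reach a cell through surface receptors coupled to the kinases JAK1, JAK2 and TYK2. Type I interferons lead to a complex with STAT2 and IRF9 that binds the interferon-stimulated response element (ISRE) in promoters, while interferon gamma acts mainly through the gamma-activated site (GAS). The products degrade or sequester viral RNA, restrict viral entry and budding, attach to vacuoles that hold pathogens, and recruit lymphocytes. In the lung, alveolar macrophages, dendritic cells and lymphocytes all respond, and many of the genes are read at a low level in resting cells.

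The matrix held unique molecular identifier (UMI) counts for 9925 cells. In the order control, HDM, APM and HDM+APM these were 3918, 994, 3890 and 1123 cells, with 15170333, 1920648, 11355310 and 5197132 UMIs and a median of 3417, 1380, 2637 and 4780 UMIs per cell. A total of 42 barcodes occurred in 2 libraries. For each type in each library, a gene's UMIs were divided by all UMIs of the type and scaled to counts per 1000000 (CPM). Most authors' names fitted their leading genes. The exceptions were the cells named classical monocyte, whose 10 leading genes included 4 cavity macrophage markers and 3 monocyte-derived macrophage markers from the marker lists used here. The epithelial cells were led by epithelial and red-cell genes, and their values were not compared between libraries. Rsad2, one of the 46 genes, was among the 10 leading genes of the granulocyte-like cells, so its height there describes the cluster and is not a result.

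The promoters of a few of the genes are shown because the ISRE is the sequence through which type I interferon acts. RefSeq promoter sequences of GRCm38.p6 were matched for 37 of the 46 genes. Each printed sequence runs 5′ to 3′ on the gene's own strand over the 250 bases before the start of transcription. Capitals mark the ISRE letters searched for on both strands, which are GAAA, any 2 bases and GAAA (TTTC, any 2 bases and TTTC on the other strand). Overlapping matches merge into 1 capital run. The first 6 genes hold the motif and the last, Samhd1, does not.
Isg15: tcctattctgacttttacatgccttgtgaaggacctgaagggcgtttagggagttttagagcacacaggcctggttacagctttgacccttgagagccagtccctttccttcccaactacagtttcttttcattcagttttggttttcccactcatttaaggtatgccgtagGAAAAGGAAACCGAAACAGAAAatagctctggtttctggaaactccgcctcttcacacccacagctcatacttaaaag
Ifit1: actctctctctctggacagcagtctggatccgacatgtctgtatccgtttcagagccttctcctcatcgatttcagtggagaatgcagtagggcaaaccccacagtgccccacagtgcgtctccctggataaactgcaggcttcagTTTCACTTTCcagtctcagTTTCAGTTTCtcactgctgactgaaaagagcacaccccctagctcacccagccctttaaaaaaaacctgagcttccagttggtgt
Cxcl10: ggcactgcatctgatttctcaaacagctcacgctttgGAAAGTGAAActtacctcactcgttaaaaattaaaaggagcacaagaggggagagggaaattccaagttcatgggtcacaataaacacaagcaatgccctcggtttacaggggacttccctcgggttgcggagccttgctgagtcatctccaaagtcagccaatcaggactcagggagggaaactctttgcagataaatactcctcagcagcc
Gbp2: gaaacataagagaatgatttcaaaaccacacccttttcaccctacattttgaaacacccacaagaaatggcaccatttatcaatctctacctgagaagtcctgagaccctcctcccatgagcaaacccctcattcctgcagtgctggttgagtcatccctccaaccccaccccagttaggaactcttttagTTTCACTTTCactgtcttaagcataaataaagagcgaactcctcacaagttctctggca
Ifitm2: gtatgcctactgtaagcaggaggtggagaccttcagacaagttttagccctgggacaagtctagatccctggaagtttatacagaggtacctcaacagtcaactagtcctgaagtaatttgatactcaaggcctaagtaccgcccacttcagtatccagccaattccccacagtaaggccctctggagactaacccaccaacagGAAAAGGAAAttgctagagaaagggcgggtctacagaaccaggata
Irgm1: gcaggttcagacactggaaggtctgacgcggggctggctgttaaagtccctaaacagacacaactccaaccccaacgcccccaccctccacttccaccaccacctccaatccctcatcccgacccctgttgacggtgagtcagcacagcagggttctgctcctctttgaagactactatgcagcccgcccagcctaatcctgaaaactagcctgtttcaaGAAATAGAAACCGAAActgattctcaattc
Samhd1: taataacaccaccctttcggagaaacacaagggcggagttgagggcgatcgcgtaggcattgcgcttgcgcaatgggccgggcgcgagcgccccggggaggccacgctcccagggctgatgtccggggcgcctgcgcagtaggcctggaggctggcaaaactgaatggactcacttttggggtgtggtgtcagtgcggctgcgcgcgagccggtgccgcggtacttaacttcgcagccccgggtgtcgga

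These windows lie at chr4:156200819-156201068 (minus strand, Isg15), chr19:34640639-34640888 (plus strand, Ifit1), chr5:92348890-92349139 (minus strand, Cxcl10), chr3:142620413-142620662 (plus strand, Gbp2), chr7:140955962-140956211 (minus strand, Ifitm2), chr11:48871421-48871670 (minus strand, Irgm1) and chr2:157135097-157135346 (minus strand, Samhd1). Isg15 held 3 overlapping matches, with 56, 62 and 68 bases between the last motif base and the start. By the same measure, Ifit1 held 2, at 75 and 94 bases, and Irgm1 held 2, at 14 and 20 bases. In the single matches, 203 bases lay between motif and start in Cxcl10, 49 in Gbp2 and 36 in Ifitm2. Over the full window, which also takes in 50 bases after the start, 20 of the 37 genes (54.1%) held an ISRE match, against 3.99% of the 27025 genes in the promoter table and 3.89% of the 10276 table genes that were in the matrix. The GAS letters, which are TTC, any 3 bases and GAA and can overlap the ISRE letters, were found in 10 of the 37 (27.0%), against 9.55% of the table. The 31 ISRE matches had a median of 36 bases between motif and start, and in 23 this distance was 0 to 150 bases. A match is a description of letters and not a measured binding site. All 46 genes are annotated as protein-coding in GENCODE release M21, and several lie near each other, such as Ifit1, Ifit2 and Ifit3 on chromosome 19, Oasl1 and Oasl2 on chromosome 5, and Irgm1 and Ifi47 on chromosome 11.

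With the 4 libraries summed, the granulocyte-like cells carried the highest level of these genes, followed by T cells, while the resident macrophage clusters carried the lowest. The 46 genes together took 14192 CPM (13598 to 14806) in the 207 granulocyte-like cells, or 12936 CPM without Rsad2, and 7137 CPM in the 694 T cells. B cells 1 followed with 5051 CPM and dendritic cells with 4329 CPM. The 308 cells named classical monocyte, at 3876 CPM, and the 560 cells of Macrophage 8, at 3718 CPM, were close neighbours whose counting intervals overlapped. B cells 2 had 3314 CPM. The other macrophage clusters, Macrophages 1 to 7, 9 and 10, lay between 589 CPM in Macrophage 9 and 1398 CPM in Macrophage 10.

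Of the 45 genes with at least 20 UMIs over all cells, 32 (71.1%) had their highest CPM in the granulocyte-like cells, which hold the highest CPM for 12.2% of 11903 genes measured in the same way. Rsad2, a leading gene of that cluster, is 1 of the 32, and without it the count was 31 of 44. T cells were highest for 4 genes (8.89%, against 8.05% of all genes): Sp100, a nuclear body protein, Dtx3l, a ubiquitin ligase that partners Parp9, the GTPase Igtp, and Ifi27l2a, a small mitochondrial and nuclear membrane protein. Dendritic cells were highest for Mx1, Bst2 and Herc6. Macrophage 8 was highest for Stat2 and for Samhd1, a nucleotide hydrolase that limits reverse transcription, and B cells 1 for Ly6e and the RNA helicase Dhx58. Gbp3 was highest in the cells named classical monocyte, and the T-cell attractant Cxcl9 in Macrophage 10, on 3 UMIs in 50 cells. Ifi44, with 19 UMIs in all, was not ranked. Within a single library only types of 50 cells or more were ranked, so the types set side by side differed. In HDM alone, with 4 such types, 29 of 44 genes were highest in granulocyte-like cells (65.9%, against 28.5% of all genes). In HDM+APM alone, where that type had too few cells to enter, 34 of 44 were highest in T cells (77.3%, against 28.3% of all genes). The summed level in that library was 27409 CPM in the 39 granulocyte-like cells left out and 7708 CPM in T cells.

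**Figure D1:**
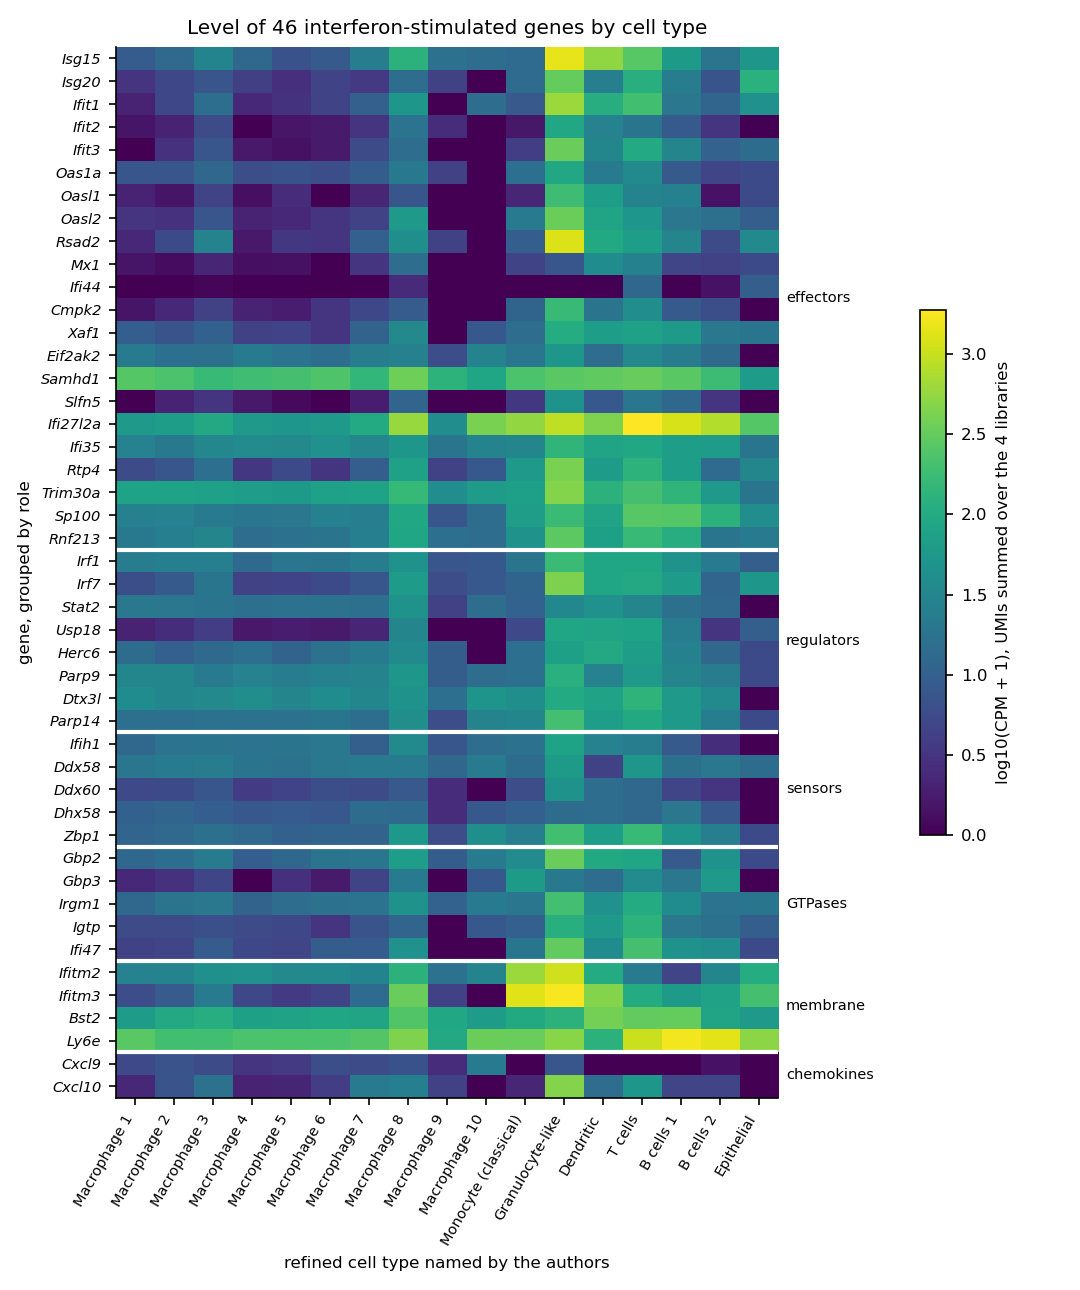
Heat map of the level of each of the 46 genes (rows, grouped by role) in the 17 cell types (columns), as log10(CPM + 1) with the 4 libraries summed. The granulocyte-like column is brightest for 32 of the 45 ranked genes, and the columns of Macrophages 1 to 7 and 9 are dark for most genes, with Samhd1 and Ly6e among the brighter ones.

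The cell types differed in which members they carried. In granulocyte-like cells, Oasl1, an oligoadenylate synthetase-like protein, stood at 178 CPM, 52.9-fold its level in all other cells. Cxcl10, a chemokine that attracts activated T cells, stood at 463 CPM (51.0-fold), and Ifit3, which binds foreign RNA together with Ifit1, at 337 CPM (45.9-fold). In T cells the leading members were Usp18, a protease that removes ISG15 from proteins and dampens the receptor (78.4 CPM, 18.6-fold), the GTPases Igtp (129 CPM, 18.4-fold) and Ifi47 (202 CPM, 16.8-fold), and Ifit3 (100.4 CPM, 17.8-fold). Dendritic cells were led by Isg15, a ubiquitin-like modifier (538 CPM, 15.2-fold), with Usp18 at 79.8 CPM (13.1-fold). Macrophage 8 was led by Oasl2 at 58.6 CPM (6.50-fold) and by Ifit2 at 16.7 CPM (5.54-fold).

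A few members made up much of the totals of the cells named classical monocyte and of the B cells. In the former, Ifitm3 and Ifitm2, which block fusion of viruses in endosomes, stood at 1304 CPM (28.3-fold other cells) and 608 CPM (13.8-fold), whereas Isg15 stood at 12.8 CPM and Ifit1 at 7.32 CPM. In B cells 2, Ly6e, a membrane protein that hinders coronavirus fusion, stood at 1397 CPM (4.96-fold) and Ifi27l2a at 790 CPM (3.85-fold). B cells 1 had Ly6e at 1667 CPM, Ifi27l2a at 1206 CPM and Sp100 at 257 CPM (5.85-fold). When Ly6e, Ifi27l2a, Ifitm2 and Ifitm3 were left out of the sum, a choice made after their values were seen, the remaining 42 genes took 1072 CPM in the cells named classical monocyte and 1020 CPM in B cells 2. The same sum was 2113 CPM in B cells 1, close to Macrophage 8. By this sum, Macrophage 8 stood at 2215 CPM, T cells at 4076 CPM and granulocyte-like cells at 9949 CPM.

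In T cells, dendritic cells and macrophages, levels were higher in both libraries from allergen-treated mice than in both libraries from saline-treated mice. Over whole libraries, the 46 genes took 1112 CPM (1095 to 1129) in control, 5985 CPM (5877 to 6096) in HDM, 1048 CPM (1029 to 1067) in APM and 4044 CPM (3989 to 4099) in HDM+APM. The cells behind these totals were not the same. Macrophages 1 to 7, 9 and 10 gave 97.9% of the members' UMIs in control and 90.9% in APM. In HDM, T cells gave 48.9% and Macrophage 8 gave 17.4%, and in HDM+APM, B cells 2 gave 35.5% and the cells named classical monocyte 30.2%. In bulk terms, a shift in cell makeup and a shift of level within cells both enter the whole-library values, so the comparisons below were made within cell types.

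Within T cells the summed level was 2538 CPM (1932 to 3273) in the 13 control cells, 7428 CPM (7235 to 7624) in 493 HDM cells, 2652 CPM (2264 to 3088) in 52 APM cells and 7708 CPM (7393 to 8033) in 136 HDM+APM cells. Macrophage 8 had 1381 CPM (1194 to 1590), 4359 CPM (4170 to 4554), 1351 CPM (1221 to 1493) and 5167 CPM (4968 to 5371) in the same order, from 107, 139, 205 and 109 cells. Macrophages 1 to 7, 9 and 10 had 1106 CPM (1089 to 1123), 2522 CPM (2333 to 2721), 1012 CPM (994 to 1032) and 2809 CPM (2606 to 3023), from 3775, 60, 3492 and 46 cells. In each of these 3 classes the intervals of the allergen libraries lay wholly above those of the saline libraries. Dendritic cells showed the same order on few cells, with 5707 CPM from 38 cells in HDM and 5359 CPM from 10 cells in HDM+APM against 1670 CPM from 5 cells in control and 1956 CPM from 23 cells in APM. B cells 1 stood at 6130 CPM in HDM (119 cells) and 2970 CPM in HDM+APM (45 cells).

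**Figure D2:**
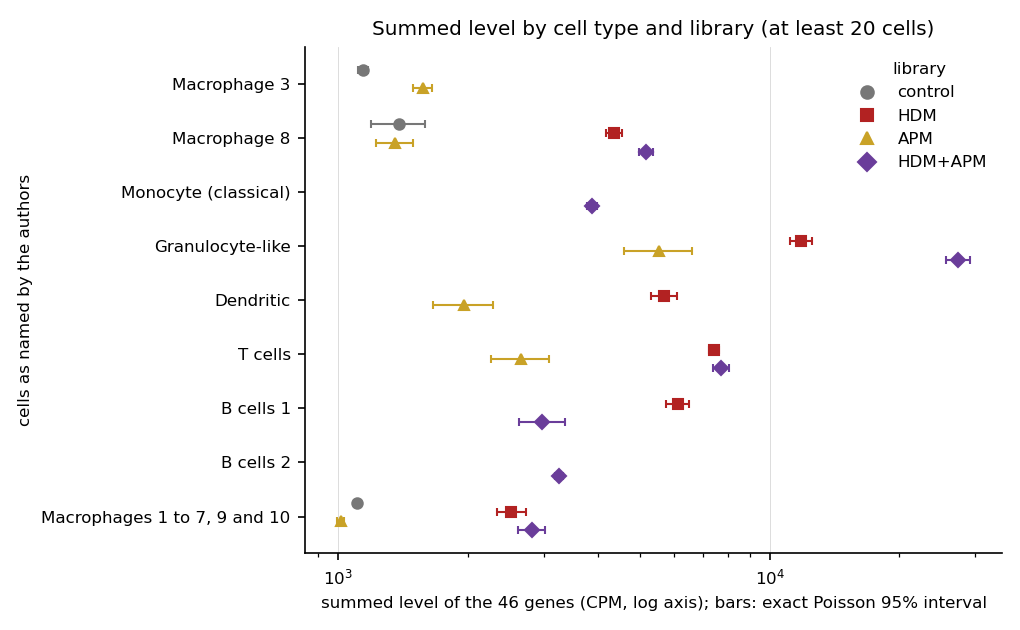
Summed level of the 46 genes in CPM (logarithmic axis) in Macrophage 3, Macrophage 8, the other macrophage clusters together and the cell types that are not macrophages or epithelial. There is 1 point per library with at least 20 cells of the type, with bars for the 95% counting interval. In Macrophage 8 and in Macrophages 1 to 7, 9 and 10 the HDM and HDM+APM points lie above the control and APM points, in T cells they lie above the APM point, and the highest point is the HDM+APM granulocyte-like value of 27409 CPM.

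Granulocyte-like cells had the highest summed level in both allergen libraries: 11834 CPM (11129 to 12573) in 132 HDM cells and 27409 CPM (25703 to 29198) in 39 HDM+APM cells. Without Rsad2 these were 10898 and 24442 CPM. The type had 2885 CPM in 7 control cells and 5534 CPM (4588 to 6618) in 29 APM cells. These were also the highest values of any type in the saline libraries, the control value on few cells. T cells in APM stood at 2652 CPM. Under 50 cells in 3 libraries, this type entered no comparison. Its values in HDM and HDM+APM were 1027 CPM (827 to 1260) and 3308 CPM (2734 to 3968) for Isg15, 350 and 1740 CPM for Ifit1, 135 and 1112 CPM for Ifit3, and 79.0 CPM (31.8 to 163) and 1797 CPM (1381 to 2299) for Cxcl10. Ifitm2 did not share the order, at 1697 CPM on 10 UMIs in control, 903 in HDM, 1937 in APM and 970 in HDM+APM. A single HDM+APM cell held 241 of its own 1278 UMIs in these genes and 25.1% of all member UMIs of the type in that library. Without it the summed level was 21312 CPM, and without the 5 cells of most member UMIs it was 12194 CPM. A single APM cell held 40.0% of the type's member UMIs there, and without it the level was 3427 CPM. In the HDM+APM library, B cells 2 held Isg15 at 16.1 CPM and Ifitm3 at 76.6 CPM, against 3308 and 3137 CPM in granulocyte-like cells. The median granulocyte-like cell held 647.5 UMIs in HDM and 811 in HDM+APM.

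For comparisons between libraries, a gene was measured if it had at least 20 UMIs over both libraries of a class of at least 50 cells in each. It was called higher or lower if its log2 ratio of CPM + 10 was 1 or more in size and the interval of the CPM ratio excluded 1. HDM against control and APM against control share the control library, and HDM+APM against HDM and HDM+APM against APM share the HDM+APM library, so counts from such pairs are not independent. HDM against control and HDM+APM against APM share no library.

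In Macrophage 8, a cluster led by Mmp12, Ccl24, Ccl8 and Arg1, most measured members were higher after allergen. In HDM against control, 17 of 28 were called higher and 0 lower, where 7.27% of 3949 genes were called higher and 4.99% lower. The members' median log2 ratio was 1.51, against 0.04 over all genes, and it was 1.28 with the 6 genes at 0 UMIs in control set at their bound. The summed level was 3.16-fold (2.72 to 3.68) that of control. In HDM+APM against APM, 20 of 31 were called higher and 0 lower, where 4.7% of 4555 genes were called higher and 4.24% lower. Here the median was 1.43, against -0.01 over all genes, and the summed level was 3.82-fold (3.44 to 4.27) that of APM.

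Among the effectors of Macrophage 8, Ifi27l2a stood at 57.0, 782, 90.3 and 879 CPM in control, HDM, APM and HDM+APM. It was 13.7-fold (6.89 to 32.0) higher in HDM than in control and 9.74-fold (6.55 to 15.1) higher in HDM+APM than in APM. Isg15 stood at 42.7, 144, 10.4 and 201 CPM, ratios of 3.36 (1.47 to 9.50) and 19.2 (6.40 to 94.9). Rtp4, a chaperone of receptors that also restricts flaviviruses, stood at 7.12, 102, 0 and 107 CPM, 14.4-fold higher in HDM and at least 10.3-fold higher in HDM+APM. Each of these genes was lower in both saline libraries than in either allergen library. Rnf213, a very large ubiquitin ligase, stood at 0, 133, 24.3 and 93.2 CPM and was at least 6.22-fold higher in HDM than in control (interval from 4.91). Ifit1 stood at 0, 65.3, 10.4 and 81.0 CPM, at least 3.06-fold higher in HDM (interval from 2.34) and 7.78-fold higher in HDM+APM. Rsad2, a radical enzyme that makes a chain-terminating nucleotide, stood at 0, 43.5, 10.4 and 68.9 CPM. In all, 9 of 12 measured effectors were called higher in each of the comparisons, with medians of 1.94 and 1.51. Samhd1 stood high in all 4 libraries, at 285, 392, 174 and 466 CPM, and was called only in HDM+APM against APM.

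The inducible GTPases, which coat pathogen vacuoles, were the role with the highest median in Macrophage 8 in HDM against control (2.78, 3 of 3 measured called higher). Gbp2 stood at 0, 98.0, 3.47 and 93.2 CPM, at least 4.59-fold higher in HDM (interval from 3.58) and 26.8-fold (4.58 to 1082, on 1 APM UMI) higher in HDM+APM. Ifi47 stood at 0, 58.8, 6.95 and 66.9 CPM, at least 2.75-fold higher in HDM (interval from 2.09) and 9.62-fold higher in HDM+APM. The regulators had medians of 1.08 (2 of 7 called higher) in HDM against control and 0.97 (4 of 8) in HDM+APM against APM. Irf7, the factor that amplifies type I interferon production, was the clearest of them at 7.12, 82.7, 3.47 and 91.2 CPM, ratios of 11.6 and 26.2. Zbp1, a sensor of Z-form nucleic acid, stood at 0, 56.6, 13.9 and 93.2 CPM. Among membrane proteins, Ifitm3 stood at 49.8, 379, 83.4 and 527 CPM (7.60-fold and 6.32-fold) and Bst2, which tethers budding virus, at 85.4, 320, 97.3 and 302 CPM. Ifitm2, the neighbour of Ifitm3, stood at 142, 78.4, 125 and 168 CPM and was called in neither comparison.

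Calls were also set side by side for the pair of comparisons with no library in common. Of the members, 13 were called higher in both, which is 76.5% of the 17 in HDM against control and 65.0% of the 20 in HDM+APM against APM. Over all genes, 86 were called higher in both, which is 30.0% of 287 and 40.2% of 214. They were Bst2, Gbp2, Ifi27l2a, Ifi47, Ifit1, Ifitm3, Irf7, Isg15, Rnf213, Rsad2, Rtp4, Trim30a and Zbp1. By promoter, 8 of 11 measured genes with an ISRE match and 6 of 10 with a promoter but no match were called higher in HDM against control, with median log2 ratios of 1.79 and 1.36. In HDM+APM against APM these were 9 of 13 (median 1.54) and 6 of 11 (median 1.07). Samhd1, printed above as the gene without a match, is in the second class.

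**Figure D3:**
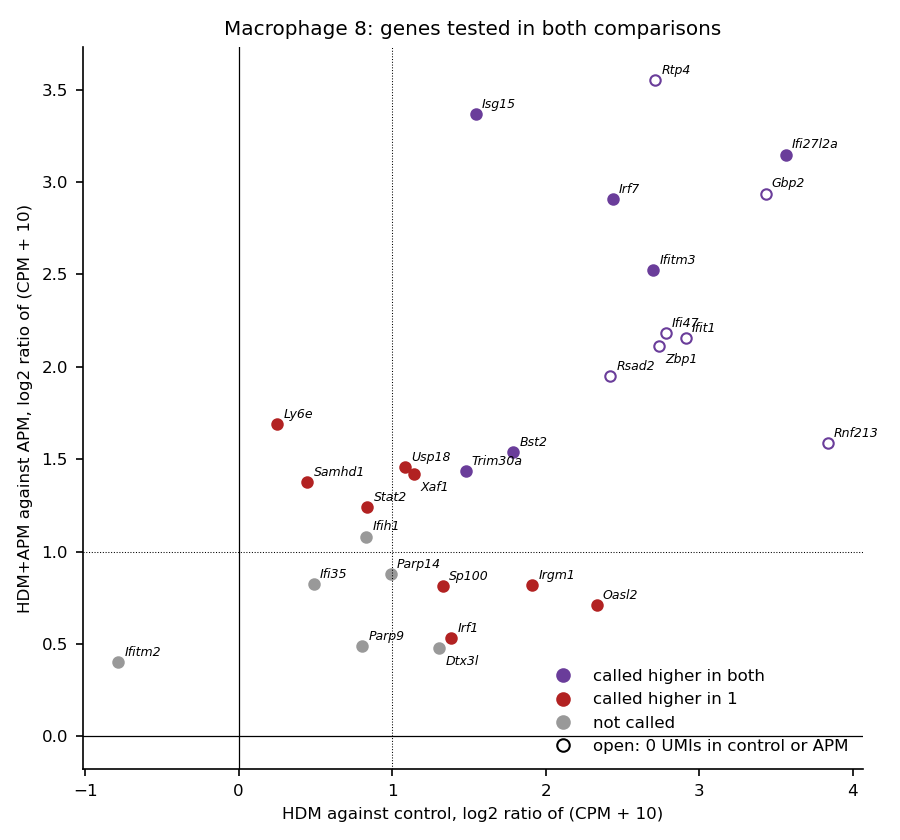
Log2 ratio of CPM + 10 in Macrophage 8 for HDM against control (horizontal axis) and HDM+APM against APM (vertical axis), 1 point for each of the 28 genes measured in both comparisons. Dotted lines stand at a log2 ratio of 1, purple marks the 13 genes called higher in both, red those called in 1, grey the rest, and open points have 0 UMIs in control or APM. Most points lie in the upper right, and Ifitm2 is lowest on the horizontal axis at -0.79.

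Other features of Macrophage 8 differed between the same libraries. Summed alveolar macrophage markers stood at 8586, 37772, 7616 and 35528 CPM in control, HDM, APM and HDM+APM, and summed red-cell genes at 377, 6195, 21530 and 42.6 CPM. The median cell had 1167 UMIs in control, 3056 in HDM, 1182 in APM and 4849 in HDM+APM. The part of these differences in the result was not tested. T-cell markers summed to 21.4, 131, 17.4 and 46.6 CPM. Within Macrophage 8 of the HDM library there were 35.9 Ifi27l2a UMIs for each Cd3d UMI, against 2.88 in T cells of that library. There were 2.81 Ifitm3 UMIs for each S100a8 UMI in HDM and 10.8 in HDM+APM, against 0.07 and 0.18 in granulocyte-like cells. Some other types had higher ratios than Macrophage 8. In HDM, B cells 1 held 141 Ifi27l2a UMIs for each Cd3d UMI, and dendritic cells 11 Ifitm3 UMIs for each S100a8 UMI. In HDM+APM, the cells named classical monocyte held 52.2 Ifitm3 UMIs for each S100a8 UMI. Carry-over of RNA between types was not tested. With an assumed 5% of free RNA subtracted, 20 genes were called higher in HDM against control and 21 in HDM+APM against APM. These counts used the log2 ratio alone, without the interval, and their all-gene shares are not given. They therefore cannot be set directly against the counts called with the interval.

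The other macrophage clusters, Macrophages 1 to 7, 9 and 10, could be compared between HDM and control on 60 and 3775 cells. Of 42 measured members, 14 were called higher and 1 lower, where 2.6% of 10358 genes were called higher and 1.24% lower. The median log2 ratio was 0.78, against 0.04 over all genes, and the summed level was 2.28-fold (2.11 to 2.47) that of control. Without the single cell of most member UMIs in each library, 10 of 42 measured were called higher and the summed level was 2.18-fold. The all-gene share after this step is not given. Ifi27l2a stood at 68.2, 400, 63.0 and 414 CPM in control, HDM, APM and HDM+APM (5.86-fold, 4.75 to 7.17). Rtp4 stood at 7.03, 53.3, 4.77 and 82.9 CPM (7.59-fold). Both were thus again high in the 2 allergen libraries and low in the other 2.

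Among the GTPases of these clusters, Igtp stood at 3.88, 30.5, 4.77 and 19.7 CPM (7.85-fold higher in HDM than in control) and Ifi47 at 4.95, 26.7, 4.87 and 19.7 CPM (5.38-fold). The synthetase-like Oasl2 stood at 3.55, 26.7, 1.5 and 7.89 CPM (7.51-fold). The other genes called higher were Trim30a, Dtx3l, Rnf213, Irf7, Parp9, Ifi35, Gbp2, Isg15 and Ifitm3. Ifitm2 alone was called lower, at 32.3, 3.81, 38.7 and 67.1 CPM, or 8.49-fold lower in HDM (1.52 to 336) on 1 HDM UMI. By role, the higher calls were 7 of 18 effectors, 3 of 8 regulators, 3 of 5 GTPases and 1 of 4 membrane proteins. None of 5 sensors and neither of the chemokines was called. Alveolar macrophage markers in these clusters summed to 11464, 36906, 12579 and 36149 CPM, and red-cell genes to 248, 2049, 5140 and 47.3 CPM, and their part in the result was not tested.

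T cells had enough cells for HDM+APM against APM (136 and 52 cells). Of 30 measured members, 18 were called higher and 0 lower, where 4% of 2074 genes were called higher and 8.15% lower. The median log2 ratio was 1.82, against -0.12 over all genes, and 1.30 with the 7 genes at 0 UMIs in APM set at their bound. The summed level was 2.91-fold (2.48 to 3.42) that of APM. The 13 control T cells were too few for a comparison of HDM with control, and their levels are given as values.

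Ifi27l2a had the highest ratio among members with UMIs in APM T cells, at 688, 2134, 63.9 and 1756 CPM in control, HDM, APM and HDM+APM (27.5-fold, 10.7 to 101, for HDM+APM over APM). The APM value rests on 4 UMIs, and 1 of the 136 HDM+APM cells held 115 of the 514 Ifi27l2a UMIs there. Isg15 stood at 0, 252, 32.0 and 383 CPM (12.0-fold, 3.24 to 100.1). Ifit1 stood at 0, 201, 0 and 219 CPM and was at least 4.56-fold higher (interval from 3.60). Ifit3 stood at 0, 95.1, 0 and 143 CPM, at least 2.99-fold higher (interval from 2.33). Irgm1, a GTPase of autophagy, stood at 0, 114, 0 and 102 CPM, at least 2.14-fold higher (interval from 1.63). Ifit1, Ifit3 and Irgm1 were at 0 in both small saline samples and present in both allergen libraries, whereas Ifi27l2a was present in all 4. Ly6e did not follow this order, at 860, 975, 1214 and 1199 CPM, and so did Ifi47 for this comparison, at 43.0, 203, 176 and 219 CPM. By role, 10 of 14 effectors, 3 of 7 regulators, 1 of 1 sensor, 2 of 4 GTPases, 1 of 3 membrane proteins and 1 of 1 chemokine were called higher. By promoter, 9 of 11 measured genes with an ISRE match were called higher (median 3.23), and 4 of 12 without (median 1.12).

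T cells of the HDM library with a Cd4 UMI had a summed level of 10072 CPM (51 cells), those with a Cd8a or Cd8b1 UMI 5489 CPM (110 cells) and those with neither 7920 CPM (330 cells). In HDM+APM the values were 9215 (15 cells), 6977 (31 cells) and 7723 CPM (89 cells). The order of the first and second of these was the same in both libraries. Summed T-cell markers in T cells were close across libraries, at 2882, 2741, 3164 and 2692 CPM in control, HDM, APM and HDM+APM. Summed natural killer cell markers were not, at 43.0, 820, 47.9 and 936 CPM, and red-cell genes stood at 301, 2621, 9172 and 71.7 CPM. Their part in the comparison was not tested.

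Without allergen, no member was called between APM and control in any macrophage cluster compared except Macrophage 3. Over Macrophages 1 to 7, 9 and 10 together, 0 of 44 measured members were called in either direction, where 0.175% of 10884 genes were called higher and 0.00919% lower. The median log2 ratio was -0.03 and the summed level was 0.916-fold (0.894 to 0.938) that of control. By the interval alone, 11 of the 44 were lower in APM and 3 higher, where 16.4% of all genes were lower and 20.3% higher. For genes of a few CPM, the pseudocount of 10 CPM keeps even a 2-fold difference from being called. Among such genes, Oasl1 (0.406-fold), Oasl2 (0.422-fold) and Cmpk2 (2.14-fold) had intervals of the CPM ratio that excluded 1. The absence of calls therefore does not show that these genes were level. In Macrophage 8, 0 of 8 were called, where 1.99% of 2959 genes were called higher and 1.96% lower, with a summed level of 0.979-fold (0.822 to 1.17). By cluster the summed level was 0.872-fold (0.818 to 0.929) in Macrophage 2, 0.786-fold (0.740 to 0.835) in Macrophage 5, 0.893-fold (0.823 to 0.969) in Macrophage 7, 0.771-fold (0.618 to 0.959) in Macrophage 9 and 0.998-fold in Macrophage 1, with 0 members called in each. A single control cell held 9.53% of the member UMIs of Macrophage 7. Without the 1 cell of most member UMIs in each library, Macrophage 7 was 0.953-fold (0.876 to 1.04). Over all genes, higher calls made up 0.343% in Macrophage 2, 0.226% in Macrophage 5, 0.281% in Macrophage 7, 1.37% in Macrophage 9 and 0.448% in Macrophage 1. Lower calls made up 0.0368%, 0.0791%, 0.205%, 2.44% and 1.16% in the same order.

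Macrophage 3 was the cluster whose summed level was above that of control, and its difference from the other clusters was not tested. Its summed level was 1141, 3062, 1572 and 2389 CPM in control, HDM, APM and HDM+APM, and APM was 1.38-fold (1.30 to 1.46) control on 179 and 906 cells. Of 42 measured members 6 were called higher and 0 lower, where 0.367% of 8981 genes were called higher and 0.0668% lower, with a median of 0.36 against -0.02 over all genes. Ifit1 stood at 8.21 CPM in control and 48.2 CPM in APM (5.88-fold, 3.79 to 9.11), and Rsad2 at 19.4 and 77.2 CPM (3.98-fold). Cxcl10 stood at 10.6 and 46.1 CPM (4.33-fold), Isg15 at 22.2 and 65.4 CPM (2.95-fold), Ifit3 at 3.73 and 20.4 CPM (5.46-fold) and Irf7 at 13.4 and 41.8 CPM (3.11-fold). Of the 6, 5 have an ISRE match in their promoter among the 19 measured genes that have one, and 1 of 16 measured genes without a match was called.

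A single APM cell held 10.3% of the member UMIs of Macrophage 3 in that library and 33 of its 43 Cxcl10 UMIs. Without the cell of most member UMIs in each library, Cxcl10 was 1.11-fold (0.502 to 2.2), and 3 of 40 measured genes were still called: Ifit1 at 4.64-fold, Rsad2 at 3.79-fold and Isg15 at 2.57-fold. The all-gene share after this step is not given. Ifit3 and Irf7, at 4.61-fold and 2.64-fold, had log2 ratios of 0.99 and 0.96, just under the threshold of 1. The summed level was then 1.25-fold (1.18 to 1.33). Without the 5 cells of most member UMIs in each library, it was 1232 CPM in APM and 1090 CPM in control. The median cell stood at 770 CPM in APM and 873 CPM in control, and the 90th percentile at 4222 and 1936 CPM. The higher sum in APM thus lay in a minority of cells and not in the typical cell. In cells thinned to 1000 UMIs, 11.2% of APM cells of this cluster held 5 or more member UMIs, against 3.64% of control cells.

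**Figure D4:**
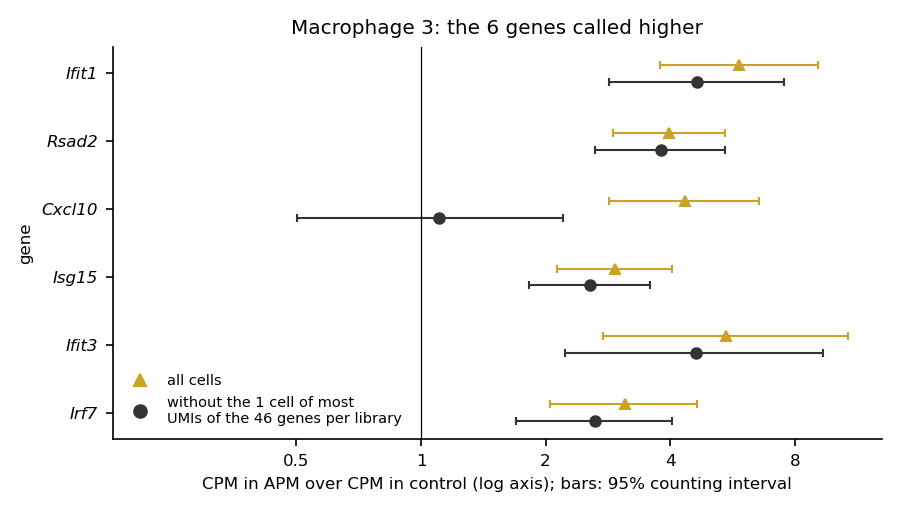
Ratio of CPM in APM to CPM in control (logarithmic axis) in Macrophage 3 for the 6 genes called higher, with all cells and without the 1 cell of most member UMIs in each library, with 95% counting intervals. Cxcl10 drops from 4.33 to 1.11 and the other 5 genes stay between 2.57 and 4.64.

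Few members were called between HDM+APM and HDM. In Macrophage 8, HDM+APM against HDM gave a median of 0.06 over 35 measured members, against -0.07 over all genes, and 2 were called higher and 0 lower, where 1.55% of 5164 genes were called higher and 2.48% lower. The summed level was 1.19-fold (1.12 to 1.26). The genes called were Cxcl10, at 8.71 CPM in HDM and 58.8 CPM in HDM+APM (6.75-fold, 2.37 to 26.4), and Ifitm2, at 78.4 and 168 CPM (2.15-fold, 1.43 to 3.27). The 29 Cxcl10 UMIs lay in 5 of 109 cells, 16 of them in 1 cell. Without the cell of most member UMIs in each library, 0 of 33 measured members were called, and the all-gene share is not given. Ifitm2 was then 2.09-fold (1.40 to 3.19) higher, with a log2 ratio of 0.98, just under the threshold.

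In T cells, HDM+APM against HDM gave a median of 0.11 over 42 measured members, against -0.03 over all genes, with a summed level of 1.04-fold (0.988 to 1.09). Of the 42, 3 were called higher and 0 lower, where 1.64% of 4949 genes were called higher and 3.25% lower. They were Cxcl10, at 13.2 and 174 CPM (13.2-fold, 6.62 to 29.2), Rsad2, at 55.5 and 123 CPM (2.22-fold, 1.38 to 3.55), and Slfn5, a Schlafen protein, at 13.2 and 37.6 CPM (2.85-fold, 1.10 to 7.48). The 51 Cxcl10 UMIs of HDM+APM T cells lay in 9 of 136 cells, 15 of them in 1 cell. Without the cell of most member UMIs in each library, Cxcl10 was 13.5-fold higher. Cxcl10 was the member called in both classes in this comparison, and it was also far apart in granulocyte-like cells, at 79.0 and 1797 CPM. It rests on few cells in each of these types.

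Single cells differed widely within a type. Cells were thinned to 1000 UMIs each, and shallower cells were left out. In T cells the mean was 7.94 member UMIs over 367 HDM cells and 7.88 over 132 HDM+APM cells, with medians of 5 and 4, against 2.64 and 3 over 33 APM cells. The share of T cells with at least 20 member UMIs was 8.45% in HDM and 10.6% in HDM+APM, and the 10% of cells with most held 35.1% and 46.1% of all member UMIs. The cells named classical monocyte were more even. Their mean was 3.82 and their median 3.5 over 308 cells, none had 20 or more, and their top 10% held 21.5%. Macrophage 8 had means of 1.48, 4.61, 1.27 and 4.94 in control, HDM, APM and HDM+APM (66, 121, 132 and 85 cells kept), and 3.03%, 27.3%, 3.79% and 44.7% of cells held 5 or more. Thinning left out 41, 18, 73 and 24 Macrophage 8 cells, and 126 HDM and 19 APM T cells. Only 16 of the 207 granulocyte-like cells reached 1000 UMIs. At 500 UMIs, 36.4% of 132 HDM cells and 53.8% of 39 HDM+APM cells of that type held 5 or more.

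**Figure D5:**
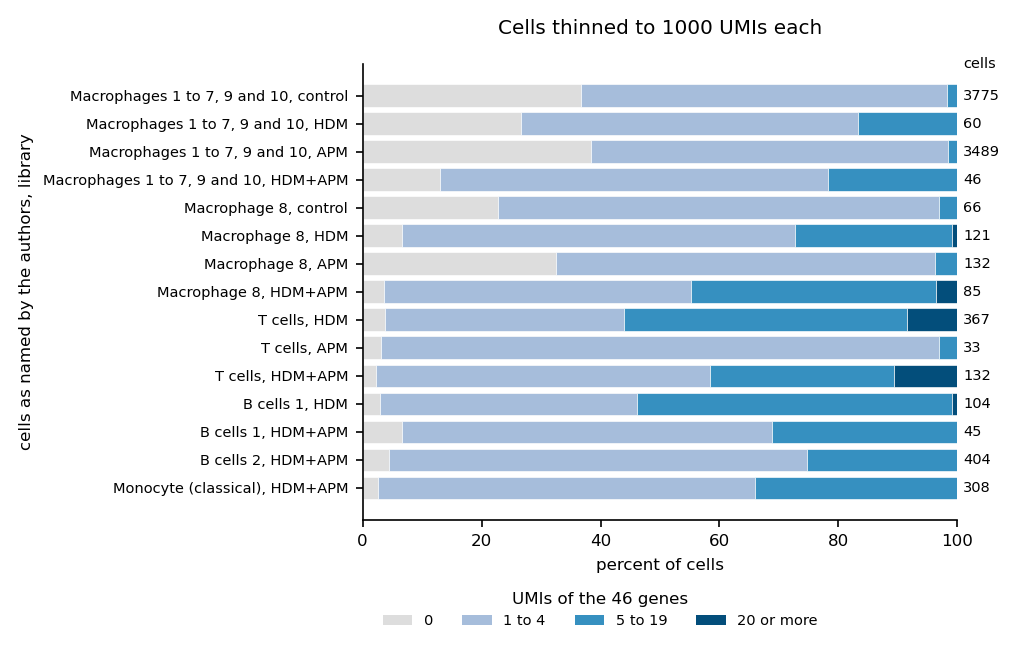
Share of cells (percent, stacked bars) with 0, 1 to 4, 5 to 19 and 20 or more UMIs of the 46 genes after each cell was thinned to 1000 UMIs, by cell type and library, with the number of cells at the right. T cells of both allergen libraries reach 20 or more UMIs in 8.45% and 10.6% of cells, whereas 0 of 33 APM T cells and 0 of 308 cells named classical monocyte do.

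The other genes of the pathway were read from a list of 51, of which 30 were in the matrix: 1 of 20 interferons, 9 of 9 receptor chains and kinases, 6 of 6 further transcription factors, 11 of 13 genes of interferon induction and 3 of 3 brakes. The interferon in the matrix was Ifng, with 21 UMIs in all. Of these, 18 lay in HDM T cells (23.8 CPM), 1 in HDM+APM T cells, 1 in B cells 2 and 1 in Macrophage 5. Expression of the other 19 was not analysed here.

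No class and comparison had more than 4 of these pathway genes called higher. Jak2, the kinase of the interferon gamma receptor, was called higher in both macrophage classes, for example at 35.6 and 98.0 CPM in control and HDM in Macrophage 8 (2.75-fold). In Macrophages 1 to 7, 9 and 10, 4 of 26 measured were called higher in HDM, where 2.6% of all genes were called higher. Among them were Irf9 (15.0 and 41.9 CPM, 2.79-fold) and the brake Socs3 (3.68 and 19.1 CPM, 5.17-fold), and the median of the list was 0.51. In Macrophage 8, 2 of 20 were called higher in HDM (median 0.31), against 7.27% of all genes. In HDM+APM against APM, 3 of 19 were called higher (median 0.17), against 4.7% of all genes, among them Irf9 at 20.8 and 56.7 CPM. In T cells in HDM+APM against APM, 2 of 11 were called higher, against 4% of all genes, among them Irf8 (16.0 and 99.1 CPM). Ifngr1, a chain of the interferon gamma receptor, was called lower (1103 and 495 CPM), as were 8.15% of all genes. None of 23 in Macrophage 8 and none of 20 in T cells was called in HDM+APM against HDM, and none of 27 in Macrophages 1 to 7, 9 and 10 in APM against control. In Macrophage 8 in APM against control, Irf5 was called lower (149.5 and 69.5 CPM). The all-gene shares of these last comparisons stand above, beside the members' counts. Ifnar1, a chain of the type I receptor, was highest in T cells (59.0 CPM), Ifnar2 in the cells named classical monocyte (142 CPM), Ifngr2 in granulocyte-like cells (258 CPM) and Irf5 in dendritic cells (246 CPM).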

How the data were processed

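Lavage cells were sequenced with 10x 3' chemistry. The authors deposited a matrix of UMI counts per gene and cell and a table of cell labels, from which the library and the refined cell type of each cell were taken. Per the submitters' processing notes, Cell Ranger 2.2.0, Seurat 2.3.4 and the mm10 genome were used. The labels do not say how cells were filtered or doublets treated, and no doublets were removed here. The deposited cells hold 496 to 9998 UMIs each, so higher-count cells do not occur in the matrix.

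Counts were summed per type and library and turned into CPM with exact Poisson intervals at 95%. Ratios have exact conditional binomial intervals, and a gene at 0 UMIs in 1 library was set against 3 counts. The pseudocount was 10 CPM. No test between groups was run, since each group has 1 library. A total of 23 macrophage-cluster cells whose coarse label was of another type were left out. Thinning to 1000 or 500 UMIs was by seeded sampling without replacement. The scripts were tested on simulated data. Calls in Macrophages 1 to 7, 9 and 10 rest on clusters in unequal shares, and equal shares were an alternative.

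Genes were picked for full values as up to 6 measured members per class and comparison with the largest log2 ratio, and up to 4 per cell type with the highest ratio to other cells. Values are given mainly where members were called, and not all genes picked are given. Other members were named after their values were seen. The members, the pathway and marker lists were chosen with earlier results of these data known. Python 3.11.15, numpy 2.4.6, pandas 2.3.3, scipy 1.17.1 and matplotlib 3.10.9 were used. Results for 1 gene of the pathway list are not reported here.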

Additional observations from a re-analysis of the deposited data

Results flagged for a closer look

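In APM against control, the summed level of the 46 genes was 1.38-fold (1.30 to 1.46) in Macrophage 3 and lay below 1 in 4 other clusters: 0.872-fold in Macrophage 2, 0.786-fold in Macrophage 5, 0.893-fold in Macrophage 7 and 0.771-fold in Macrophage 9. The clusters come from the same pair of libraries, and the difference between them was not tested. Without the 1 cell of most member UMIs in each library the Macrophage 3 value was 1.25-fold (1.18 to 1.33). The Macrophage 7 value was then 0.953-fold (0.876 to 1.04), an interval that includes 1. The median Macrophage 3 cell was lower in APM (770 CPM) than in control (873 CPM).

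In 3 cell types that entered no comparison, 1 or 2 libraries had a summed level whose interval lay above that of the few control cells of the same type (7 granulocyte-like cells at 2885 CPM, 5 dendritic cells at 1670 CPM and 7 epithelial cells at 1183 CPM). Granulocyte-like cells stood at 11834 CPM in HDM and 27409 CPM in HDM+APM. Dendritic cells stood at 5707 CPM (5320 to 6115) in HDM, where 1 of the 38 cells held 30.7% of their member UMIs and the level without it was 4168 CPM. Cells named epithelial stood at 4234 CPM (3672 to 4858) in 25 HDM+APM cells and at 1003 CPM in 68 APM cells. These cells carry red-cell as well as epithelial genes, and the values are given as a description only.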

How the results depend on the processing

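Of 250 recomputed values, 219 stayed within the spread or within 1.5 times the reported count, and many of these were counts of 0 that stayed at 0. Medians of APM against control changed sign. In Macrophage 8 the reported 0.35 ranged from -0.76 to 0.69, and in Macrophages 1 to 7, 9 and 10 the reported -0.03 ranged from -0.06 to 0.09. The medians recomputed for the other comparisons kept their sign. With a pseudocount of 50 CPM, the median in HDM against control was 0.89 in Macrophage 8, and that of T cells in HDM+APM against APM was 1.20. The same pseudocount left 1 member higher and 0 lower in the other macrophages in HDM against control, and 0 higher in Macrophage 8 and 1 in T cells in HDM+APM against HDM. A pseudocount of 1 CPM gave 5 in T cells there. A minimum of 50 UMIs, under which fewer genes were measured, gave 7 higher in Macrophage 8 in HDM against control, 10 in HDM+APM against APM and 1 in HDM+APM against HDM, 7 in T cells in HDM+APM against APM, and a median of -0.68 in Macrophage 8 in APM against control. Thinning to 1000 UMIs, also with fewer genes measured, gave 6 higher and 0 lower in the other macrophages, and in Macrophage 8 it gave 4, 6 and 1 in the same order. It gave 9 in T cells in HDM+APM against APM and a median of -0.76 in Macrophage 8 in APM against control. For the minimum of 50 UMIs and for thinning, the numbers measured are not given. All-gene shares are not given for any recomputed count of members called, under these or the other settings. The recomputed counts therefore cannot be set directly against those above. The mean over cells gave a median of 2.24 in Macrophage 8 in HDM against control, 1 higher there in APM against control, and 4 in Macrophage 8 and 5 in T cells in HDM+APM against HDM. Counts for the mean over cells and for free RNA subtraction used the log2 ratio alone, without the interval. Free RNA subtraction left 1 in Macrophage 8 in HDM+APM against HDM, and leaving out the 1 cell of most member UMIs in each library, chosen after seeing the data, left 0. The cause of these shifts was otherwise not tested. Genes highest in T cells numbered 8 in HDM alone (18.2%, against 20.9% of all genes), 13 in APM alone (31.7%, against 25.3%), 34 in HDM+APM alone (77.3%, against 28.3%) and 11 after thinning (24.4%, against 6.37%). Granulocyte-like cells, under 50 in APM and in HDM+APM, were not ranked in either library alone. At 500 UMIs, 29.4% of HDM and 22.8% of HDM+APM T cells held 5 or more member UMIs. No paired analysis was possible because each group has 1 library. Depth limits the genes of few UMIs, most of all in granulocyte-like cells and in saline T cells.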
